A study of Mus musculus with 16 samples.

Results

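The response to 5-fluorouracil (5-FU) was followed in wild-type LSK cells, the fraction of mouse bone marrow that is negative for lineage antigens and positive for Sca-1 and c-Kit. The comparison takes 8 of the 16 samples in the study, chosen by their labelled genotype and treatment: 3 labelled WT + 5-FU and 5 labelled WT + PBS. The mice had a C57BL/6J background, were 8 to 14 weeks old, and had received 250 mg/kg 5-FU or PBS 10 days before sorting. The lineage antigens stained in the sort were B220, CD3, CD4, CD5 and CD8. Between 3000 and 10000 sorted cells gave the RNA of each library. The other 8 samples, 3 after 5-FU and 5 after PBS, came from mice of the same background that lack, on both alleles, a working Ets motif in the +9.5 enhancer of Gata2, labelled Gata2 +9.5(Ets)-/- (the mutant). They enter the model as groups of their own and are compared with wild type at the end.

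LSK cells hold the hematopoietic stem cells and the multipotent progenitors that give rise to all blood lineages. Most stem cells in them are quiescent, and a share of progenitors is already primed for lymphoid or megakaryocyte fates. 5-FU is a pyrimidine analogue that inhibits thymidylate synthase and enters RNA and DNA, and it kills mainly dividing cells. Surviving stem cells then enter the cycle and rebuild the blood in the days after the dose.

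Of 16482 genes tested by the quasi-likelihood test of edgeR, 2450 passed an adjusted p of 0.05, which is 14.9% of the genes. After 5-FU 915 genes rose (5.55%) and 1535 fell (9.31%), and 1964 of the 2450 differed by a log2 fold change of at least 1. The falls were deeper: 738 genes fell by a log2 of 3 or more, while 40 rose by as much. The groups did not overlap in 848 of the 915 rises and 1411 of the 1535 falls. Nothing in the labels tells whether each replicate was its own mouse, and each p therefore measures the spread between these samples, which may be technical. The count of calls rests on the 5-FU libraries in particular. It was 714 without 5-FU replicate 1, 526 without replicate 2, 1370 without replicate 3 and 1523 without PBS replicate 2. Rises made up 37.3% of the calls, against 92.3% in a limma test of log2(TPM + 1) and 68.5% once a trend with transcript length had been taken out. The edgeR result scales libraries by TMM and gives levels as CPM, counts scaled to a library of 1e6.

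The libraries did not differ in treatment alone. Immunoglobulin genes held 0.210, 0.0392 and 0.332% of the counts in the 5-FU libraries, against 31.1, 36.0, 44.2, 25.2 and 6.37% in PBS libraries 1 to 5. The groups were apart by 7.42 on the log2 scale (mean difference -7.42, exact two-sided permutation p = 0.0179, the smallest that 56 arrangements allow). A fit with this share in the model takes its slope from the spread within groups and carries it across the gap. A call lost or a direction turned in such a fit therefore cannot tell the share and the treatment apart. PBS library 3, which had the highest share, stood apart from its group, with a median Spearman correlation of 0.902 to the other PBS libraries, and PBS library 5, which had the lowest, was the closest to the 5-FU libraries (median 0.944). Changes also ran with transcript length. The median log2 fold change was -0.857 among the shortest of 4 equal bins of genes by effective length (up to 1236 bases) and 0.357 among the longest (over 3158 bases), and 0.558% and 11.5% of these genes rose. The sample codes of PBS libraries 1 to 3 have a leading zero, and those of the 5-FU libraries do not. Codes of 5-FU libraries 1 and 2 start with 509, which no PBS library has. The PBS libraries 4 and 5 and the 5-FU library 3 have sample codes that start with 715, and no other wild-type library does. What the codes mark is not stated, and a fit of these 3 libraries alone called 189 genes, with the single 5-FU library assumed to vary like the PBS libraries. In bulk RNA, fewer cells of a type and less RNA per cell cannot be told apart.

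**Figure D1:**
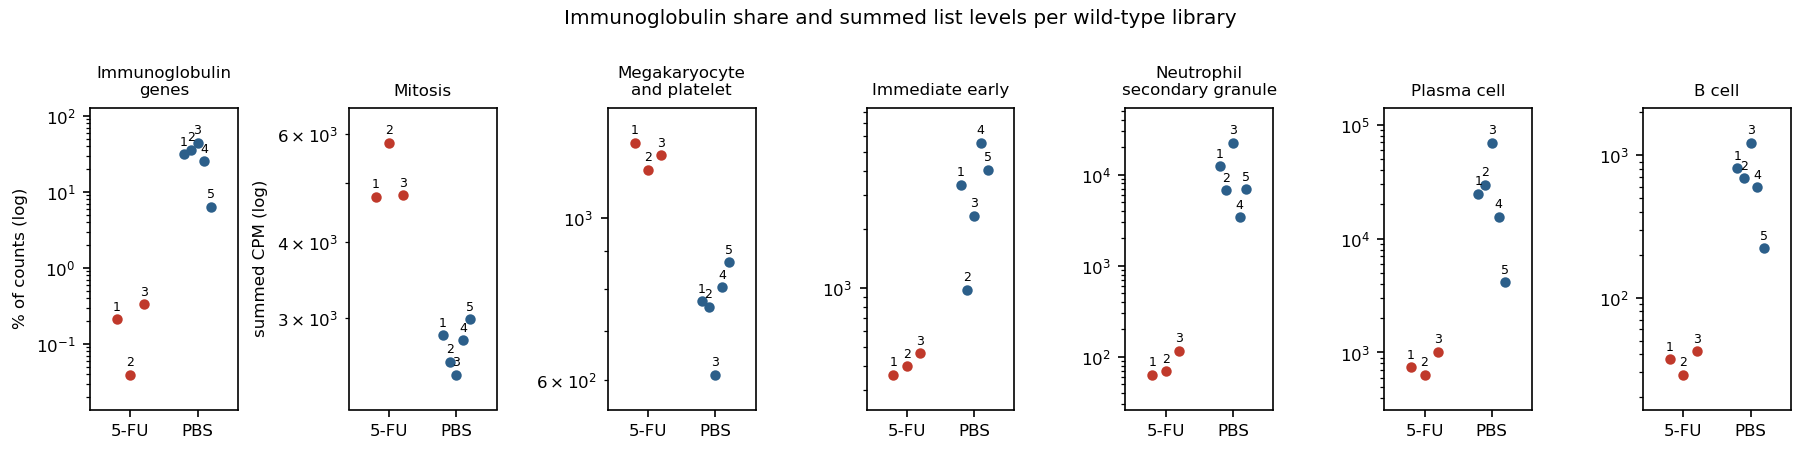
Immunoglobulin share of all counts (left, percent) and summed CPM of 6 gene lists (log axes) in each wild-type library, 5-FU (red) left of PBS (blue), with the replicate number above each point. The 5-FU points lie apart from the PBS points in every panel, and PBS replicates 3 and 5 are the highest and the lowest of their group in immunoglobulin share (44.2 and 6.37%).

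**Figure D2:**
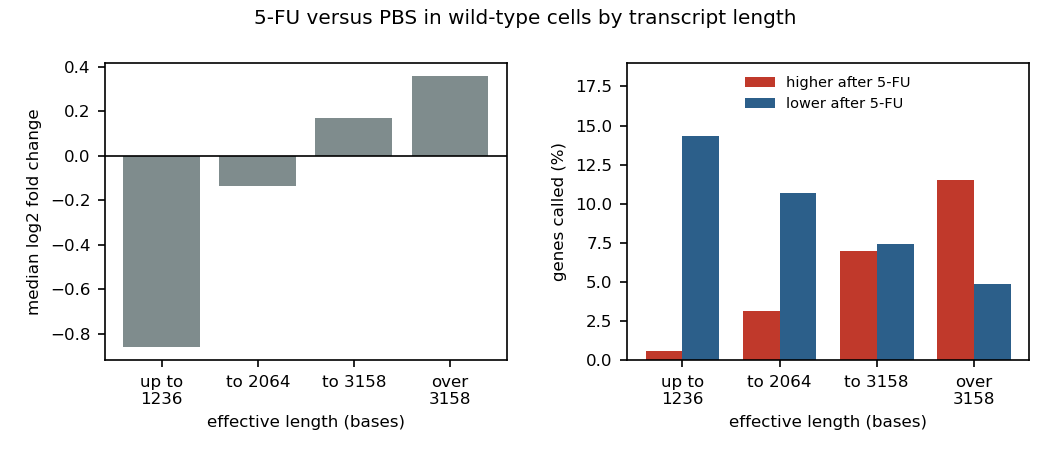
Median log2 fold change (left) and share of genes called higher (red) or lower (blue) after 5-FU (right), by 4 equal bins of effective transcript length in bases. The median is -0.857 in the shortest bin and 0.357 in the longest.

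Genes of the megakaryocyte lineage rose, as did a few associated with stem cells. Of 18 tested genes on a list of megakaryocyte and platelet markers 8 rose and none fell, against 5.55% rises over all genes, and the list had a median log2 fold change of 1.04 where all genes had -0.107. Its summed level was 1163 to 1265 CPM after 5-FU and 610.5 to 869 CPM after PBS, without overlap. Of 30 stem-cell-associated genes 6 rose (20.0%), 1 fell (3.33%) and 23 did not pass, with a median of 0.33. Their summed level overlapped, at 2546 to 3221 CPM after 5-FU and 2523 to 7131 CPM after PBS. With the immunoglobulin share in the model 3 of the stem-cell-associated genes rose and 2 fell. Stem cells and megakaryocytes share many of these genes, and several are used as surface markers to isolate the most immature stem cells.

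The gene with the smallest p of all was Selp (chr1:164115264-164150026, GENCODE M21 on GRCm38), which encodes P-selectin, an adhesion receptor of platelets and endothelium. It had 214, 218 and 278 CPM after 5-FU, against 10.2, 11.6, 7.801, 11.2 and 16.4 CPM after PBS. Every 5-FU library was over 10 times as high as any PBS library (log2 fold change 4.36 ± 0.26 (SE), edgeR adjusted p = 1.62e-07). Slamf1 (chr1:171767127-171801184), which encodes CD150, the marker that separates long-term stem cells from multipotent progenitors in mice, had 36.8, 37.9 and 43.7 CPM after 5-FU, against 5.55, 5.202, 2.72, 4.19 and 5.14 CPM after PBS. The spread within each group was small beside the gap between them (log2 fold change 3.11 ± 0.23 (SE), edgeR adjusted p = 2.17e-06). Esam (chr9:37528078-37538319), a junctional adhesion molecule of endothelium, platelets and stem cells, had 119, 121 and 138 CPM after 5-FU, against 44.9, 42.6, 38.2, 34.3 and 35.8 CPM after PBS, again with no overlap (log2 fold change 1.69 ± 0.16 (SE), edgeR adjusted p = 2.08e-05). Tek, the receptor for angiopoietins, had 41.8, 50.6 and 36.5 CPM after 5-FU, against 8.595, 5.83, 6.71, 9.05 and 11.8 CPM after PBS (log2 fold change 2.35 ± 0.34 (SE), edgeR adjusted p = 6.76e-04). These 4 rises passed without any single wild-type library, and those of Selp, Slamf1 and Esam passed in each of 25 alternative settings.

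Among the platelet genes, Itga2b (chr11:102453297-102470122), the alpha subunit of the platelet fibrinogen receptor (CD41), had 121, 99.3 and 163 CPM after 5-FU, against 20.5, 16.99, 9.89, 27.2 and 33.6 CPM after PBS (log2 fold change 2.56 ± 0.43 (SE), edgeR adjusted p = 0.00174). Vwf (chr6:125546774-125686679), von Willebrand factor, had 47.5, 57.8 and 47.3 CPM after 5-FU, against 7.84, 8.71, 3.63, 7.03 and 10.2 CPM after PBS (log2 fold change 2.76 ± 0.42 (SE), edgeR adjusted p = 8.72e-04). For both, PBS library 3 was the lowest of all and the 5-FU libraries lay above all of PBS. Gp1ba and Gp5, subunits of the platelet receptor for von Willebrand factor, also rose, by log2 fold changes of 2.38 and 2.04. F2r, the thrombin receptor PAR1, rose by 1.96, Treml1, a receptor in platelet alpha granules, by 1.79, and Rab27b, a GTPase of granule release, by 1.12, each on the log2 scale. Gp5, F2r, Treml1 and Rab27b were named after their values were seen, as the remaining members that rose. In the 715 libraries alone 3 of the 18 rose, and without PBS library 3 it was 7. With the immunoglobulin share in the model 3 rose and 1 fell, and Gp1ba, Gp5, F2r, Rab27b and Treml1 were no longer called; with its log2 1 rose. The call of Treml1 was lost without PBS library 3 or any one 5-FU library, and that of Rab27b without 5-FU library 1 or 2.

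Gata2 (chr6:88193891-88207032), a transcription factor that stem cells need, had 204, 224 and 192 CPM after 5-FU, against 62.6, 57.5, 54.1, 81.8 and 113 CPM after PBS. The 3 values after 5-FU were close together and above all 5 after PBS, of which library 5 was the highest (log2 fold change 1.48 ± 0.33 (SE), edgeR adjusted p = 0.0103). The call was lost in the 715 libraries, without 5-FU library 2, with the immunoglobulin share in the model and with PBS libraries 4 and 5 only, and the direction turned with the log2 immunoglobulin share in the model (-0.58). Gata1, a related factor of erythroid and megakaryocyte cells, had 52.4, 38.1 and 56.96 CPM after 5-FU, against 16.9, 25.8, 8.44, 13.8 and 12.7 CPM after PBS (log2 fold change 1.66 ± 0.37 (SE), edgeR adjusted p = 0.0092). The call of Gata1 was lost with the writing of the sample codes, the immunoglobulin share or its log2 in the model. Mecom, which encodes the stem cell factor EVI1, had 90.1, 120.4 and 55.4 CPM after 5-FU, against 25.4, 21.8, 25.4, 40.4 and 60.8 CPM after PBS, so that the lowest 5-FU library lay under the highest PBS library (log2 fold change 1.35 ± 0.43 (SE), edgeR adjusted p = 0.0464). Ctnnal1, which encodes alpha-catulin and marks stem cells in mouse reporter lines, rose by 1.88 on the log2 scale. The member that fell was Nr3c2, the mineralocorticoid receptor, with 0.243, 0.505 and 0.38 CPM after 5-FU, against 1.95, 2.32, 1.36, 1.23 and 1.5 CPM after PBS (log2 fold change -2.13 ± 0.60 (SE), edgeR adjusted p = 0.02902). Of 32 transcription factors of stem and progenitor cells, 3 rose (9.38%) and 1 fell (3.12%), against 5.55 and 9.31% over all genes. The call of Mecom was lost without any one of PBS libraries 1 to 4 or without 5-FU library 1 or 2, that of Nr3c2 without PBS library 1 or 2 or any one 5-FU library, and that of Ctnnal1 without 5-FU library 2. Without 5-FU library 2, 3 stem-cell-associated genes and 1 of the transcription factors rose.

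**Figure D3:**
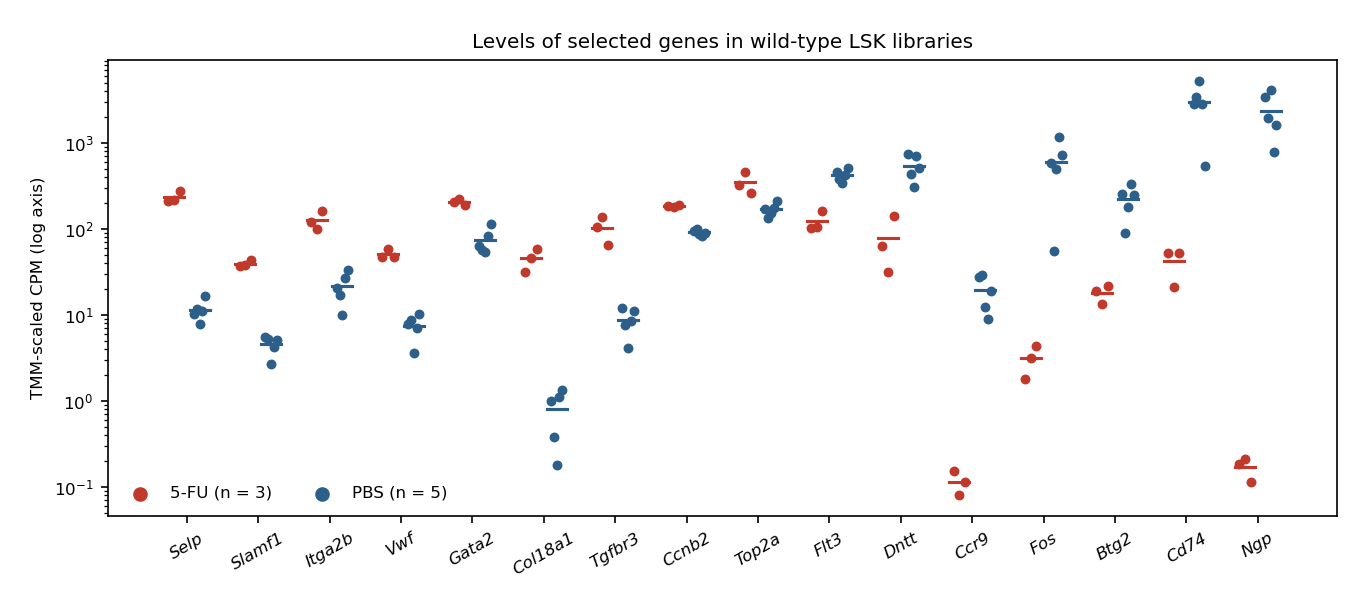
CPM (log axis) of 16 genes in each wild-type library, 5-FU (red, n = 3) left of PBS (blue, n = 5), with lines at the group means. The 5-FU points lie above all PBS points for Selp through Top2a and below all of them from Flt3 on.

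The genes with large rises held some of the extracellular matrix and of the TGF-beta pathway, though most members of both lists did not pass. Col18a1, which encodes a basement membrane collagen, had 31.7, 45.8 and 59.05 CPM after 5-FU, against 0.999, 0.376, 0.181, 1.12 and 1.35 CPM after PBS. It was under 2 CPM in every PBS library and over 30 CPM in every 5-FU library (log2 fold change 5.73 ± 0.58 (SE), edgeR adjusted p = 3.27e-05). Col4a1, a chain of basement membrane collagen IV, had 67.3, 103 and 63.9 CPM after 5-FU, against 11.8, 10.8, 12.97, 16.6 and 24.5 CPM after PBS (log2 fold change 2.35 ± 0.35 (SE), edgeR adjusted p = 8.57e-04), and Emilin2, an elastin-associated glycoprotein, had 168, 190 and 158 CPM after 5-FU, against 19.9, 5.52, 7.98, 13.3 and 17.9 CPM after PBS (log2 fold change 3.73 ± 0.58 (SE), edgeR adjusted p = 0.00102). Of 13 tested genes on a list of stroma and matrix markers 3 rose (23.1%) and none fell, and 5 of the 13 were under 1 CPM in all 5-FU libraries. Tgfbr3 (chr5:107106570-107289629), the TGF-beta co-receptor betaglycan, had 105, 136 and 64.5 CPM after 5-FU, against 11.99, 7.65, 4.08, 8.53 and 11.2 CPM after PBS (log2 fold change 3.55 ± 0.37 (SE), edgeR adjusted p = 4.72e-05). Tgfbi, a matrix protein induced by TGF-beta, had 92.7, 141 and 94.8 CPM after 5-FU, against 27.1, 13.5, 15.2, 16.1 and 22.3 CPM after PBS (log2 fold change 2.54 ± 0.23 (SE), edgeR adjusted p = 1.91e-05), and Tgfb1, the ligand, had 139, 142 and 173 CPM after 5-FU, against 44.7, 41.3, 33.02, 61.9 and 57.2 CPM after PBS (log2 fold change 1.67 ± 0.32 (SE), edgeR adjusted p = 0.00414). Id3, a target of BMP signals and an inhibitor of basic helix-loop-helix factors, fell by 2.97 on the log2 scale. Over the 29 tested genes of the TGF-beta pathway, 3 rose and 3 fell (10.3% each), with a median of 0.13. Over all genes 5.55% rose and 9.31% fell. Itga6, the alpha 6 integrin that binds laminin, had 172, 218 and 150.3 CPM after 5-FU, against 38.5, 39.7, 52.6, 41.5 and 60.04 CPM after PBS (log2 fold change 1.96 ± 0.25 (SE), edgeR adjusted p = 2.66e-04). Of 35 adhesion and migration genes 7 rose (20%) and 6 fell (17.1%). Without any one 5-FU library, Id3 and the other falls of the TGF-beta pathway were no longer called, and 4 of the adhesion genes rose. With the log2 immunoglobulin share in the model, Col18a1, Col4a1, Emilin2, Tgfbr3, Tgfbi, Tgfb1 and Itga6 were no longer called. The call of Tgfb1 was also lost with the share itself in the model or with PBS libraries 4 and 5 only.

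The other large rises were in genes of varied function. Grb10, an adaptor that dampens insulin and IGF receptors, had 58.3, 89.05 and 60.8 CPM after 5-FU, against 9.79, 9.03, 17.3, 11 and 14.8 CPM after PBS (log2 fold change 2.49 ± 0.33 (SE), edgeR adjusted p = 3.94e-04). Socs3, a feedback inhibitor of cytokine receptors, had 67.5, 73.6 and 123 CPM after 5-FU, against 4.097, 2.82, 1.72, 40.7 and 19.2 CPM after PBS. PBS libraries 4 and 5 stood above the other 3 PBS libraries and below all 5-FU libraries (log2 fold change 2.67 ± 0.81 (SE), edgeR adjusted p = 0.0419). Pde10a, a phosphodiesterase of cyclic nucleotides, had 9.44, 9.15 and 9.08 CPM after 5-FU, against 0.0999, 0.752, 0.0907, 0.337 and 0.796 CPM after PBS (log2 fold change 4.41 ± 0.61 (SE), edgeR adjusted p = 4.91e-04). Tjp1, a tight junction scaffold also called ZO-1, had 15.03, 30.8 and 4.22 CPM after 5-FU, against 0.5996, 1.13, 2.81, 0.449 and 0.765 CPM after PBS (log2 fold change 3.92 ± 0.62 (SE), edgeR adjusted p = 0.00119); the 5-FU values differed among themselves by more than those of most genes named here. Of the 12 largest rises, Tmem215, Abca4, Muc1, Clca3a1 and Sema6b also rose, by 4.04, 3.93, 3.74, 3.67 and 3.49 on the log2 scale. C4b, complement component 4, had 7.14, 5.48 and 9.5 CPM after 5-FU, against 0.4997, 0.313, 0, 0.224 and 0.643 CPM after PBS (log2 fold change 4.36 ± 0.91 (SE), edgeR adjusted p = 0.006502). Of 12 myeloid cytokine receptors 2 rose and 2 fell (16.7% each, against 5.55% rises and 9.31% falls over all genes). Csf2rb2, a beta subunit of the IL-3 receptor, rose by 2.53 and Epor, the erythropoietin receptor, by 0.99 on the log2 scale. The call of Epor was lost without any one wild-type library, and that of Socs3 without PBS library 1, 2 or 3 or any one 5-FU library.

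Immediate early genes fell as a group. Of 24 such genes 18 fell and none rose, against 9.31% falls over all genes, with a median log2 fold change of -3.30. The summed level was 359 to 465 CPM after 5-FU and 983 to 5559 CPM after PBS. Immediate early genes are transcribed within minutes of a signal or of stress, without new protein synthesis. PBS library 5, with the lowest immunoglobulin share of its group, was among the highest here (4044 CPM). Falls were called in 14 of the 24 with the immunoglobulin share in the model, 11 in the 715 libraries, 17 without PBS library 3, and 8 without 5-FU library 1 or 2. None was called with the log2 immunoglobulin share in the model, where the median was -3.24.

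Fos (chr12:85473890-85477273), a subunit of the AP-1 factor, had 1.82, 3.19 and 4.33 CPM after 5-FU, against 588, 55.3, 495, 1168 and 732 CPM after PBS, and was named after its values were seen. Even PBS library 2, the lowest of its group, was over 10 times as high as any 5-FU library (log2 fold change -7.61 ± 1.44 (SE), edgeR adjusted p = 0.00479). Jun, its partner, had 15, 19.8 and 25.4 CPM after 5-FU, against 315, 61.8, 121, 603 and 396 CPM after PBS (log2 fold change -3.90 ± 0.86 (SE), edgeR adjusted p = 0.00958). Egr1, a zinc finger factor that restrains stem cell division in mice, had 7.197, 18.6 and 13.8 CPM after 5-FU, against 282, 34.03, 119, 522 and 499.6 CPM after PBS (log2 fold change -4.47 ± 0.99 (SE), edgeR adjusted p = 0.0105). Btg2, an antiproliferative p53 target, had 18.9, 13.5 and 21.8 CPM after 5-FU, against 258, 90.1, 179, 336 and 250.3 CPM after PBS (log2 fold change -3.62 ± 0.57 (SE), edgeR adjusted p = 0.00112). PBS library 2 was the lowest PBS library for all 4. The groups did not overlap in any of them, but the rule for the largest falls, which named Jun, Egr1 and Btg2, required this. Dusp1, a phosphatase that turns off MAP kinases, had 17.7, 19.3 and 21.2 CPM after 5-FU, against 268, 58.2, 119, 385 and 202 CPM after PBS (log2 fold change -3.41 ± 0.85 (SE), edgeR adjusted p = 0.0171), and Dusp2 and Ier5 fell by 2.11 and 1.94 on the log2 scale. Klf4, a zinc finger factor of monocytes, had 0.243, 0.106 and 0.266 CPM after 5-FU, against 2.698, 4.45, 10.5, 11.2 and 2.73 CPM after PBS (log2 fold change -4.93 ± 0.70 (SE), edgeR adjusted p = 6.01e-04). The calls of Jun and Egr1 were lost without 5-FU library 1 or 2, and that of Dusp1 without any one 5-FU library. With limma on log2(TPM + 1) the calls of Jun, Egr1, Btg2, Dusp1, Dusp2 and Ier5 were lost, and those of Fos and Klf4 were kept.

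Genes of lymphoid-primed progenitors fell. Of 19 tested genes 11 fell (57.9%, against 9.31% over all genes) and 1 rose, with a median log2 fold change of -1.78. The summed level was 1895 to 2199 CPM after 5-FU and 2666 to 3469 CPM after PBS, without overlap. The cytokine receptor gene Flt3 (chr5:147330741-147400489), which marks the multipotent progenitors that make lymphoid cells, had 104, 104 and 162 CPM after 5-FU, against 462, 383, 343, 421 and 507 CPM after PBS (log2 fold change -1.78 ± 0.26 (SE), edgeR adjusted p = 7.91e-04). Dntt (chr19:41029275-41059525), which encodes terminal transferase, had 63.1, 31.7 and 143 CPM after 5-FU, against 739, 437, 311, 709.7 and 506 CPM after PBS. The 5-FU libraries ranged over more than a factor of 4, all of them below PBS (log2 fold change -2.77 ± 0.52 (SE), edgeR adjusted p = 0.00361). Satb1, a chromatin organizer of lymphoid priming, had 24.9, 26.6 and 38.5 CPM after 5-FU, against 103, 85.1, 113, 131 and 144 CPM after PBS (log2 fold change -1.94 ± 0.33 (SE), edgeR adjusted p = 0.00174).

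Receptors and recombinase genes fell further. Il7r, the receptor of the lymphoid cytokine IL-7, had 0.0607, 0.0798 and 0.532 CPM after 5-FU, against 18.5, 21.6, 18.5, 12.3 and 11.7 CPM after PBS (log2 fold change -6.26 ± 0.81 (SE), edgeR adjusted p = 2.96e-04). Ccr9, a chemokine receptor of cells bound for the thymus, had 0.152, 0.0798 and 0.114 CPM after 5-FU, against 27.3, 29.2, 12.5, 8.94 and 19.1 CPM after PBS (log2 fold change -7.35 ± 0.72 (SE), edgeR adjusted p = 2.43e-05). Rag2 had 1.03, 1.25 and 1.48 CPM after 5-FU, against 17.6, 14.6, 5.35, 20.1 and 12 CPM after PBS (log2 fold change -3.47 ± 0.74 (SE), edgeR adjusted p = 0.00782), and Rag1, the other subunit of the V(D)J recombinase, was read once in all 5-FU libraries, a pooled ratio of 123 in favour of PBS (95% counting interval 21.7 to 4889). The list had 10 falls with the immunoglobulin share in the model, 6 in the 715 libraries, 9 without PBS library 3 and 7 without 5-FU library 1 or 2, when Rag2 was also no longer called. With limma on log2(TPM + 1) the calls of Flt3, Dntt, Satb1, Rag1 and Rag2 were lost, and those of Il7r and Ccr9 were kept. Flt3 and Il7r are also read in B, T and dendritic cell lineages, whose markers fell too.

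Markers of mature blood cells fell in every lineage listed other than platelets, beside 9.31% falls over all genes. Of 19 plasma cell genes 17 fell, with summed levels of 637.5 to 1019 CPM after 5-FU and 4169 to 69570 CPM after PBS. B cell markers fell in 13 of 16 (28.8 to 42.0 CPM after 5-FU, 223 to 1222 CPM after PBS), and T and NK cell markers in 15 of 18 (153 to 231 CPM after 5-FU, 205 to 611 CPM after PBS). Genes of neutrophil secondary granules fell in 15 of 17 (63.6 to 117 CPM after 5-FU, 3384 to 22350 CPM after PBS). Among monocyte and macrophage genes 11 of 22 fell (190.3 to 455 CPM after 5-FU, 1814 to 9710 CPM after PBS), and among dendritic cell genes 12 of 14 (250.6 to 382 CPM after 5-FU, 857 to 2678 CPM after PBS). Falls came to 7 of 15 genes for eosinophils, basophils and mast cells, and 8 of 18 for erythroid cells. No member of these 8 lists rose apart from Gata1 and Epor, which stand on the erythroid list. The counts of falls leaned on the 5-FU libraries. Without 5-FU library 1 and without 5-FU library 2, falls numbered 8 and 5 for plasma cells, 9 and 7 for T and NK cells, 4 and 1 for monocytes and macrophages, 3 and 3 for dendritic cells, 2 and 2 for eosinophils, basophils and mast cells, and 2 and 2 for erythroid cells. Without 5-FU library 3 there were 9 for T and NK cells and 3 for erythroid cells. Without PBS library 1 there were 7 for monocytes and macrophages, and without PBS libraries 1 to 3 in turn there were 3, 4 and 5 for erythroid cells. Defining markers at 0 in all 3 5-FU libraries were Pax5 and Blk of B cells, Cd3e and Cd3g of T cells, Ly6g and Olfm4 of neutrophils, and Siglech and Cd209a of dendritic cells. Some were low after PBS as well. Siglech and Cd3e were at 0 in PBS library 3 and reached no more than 5.25 and 1.25 CPM in any PBS library. These markers and the immunoglobulin share were both lower after 5-FU. PBS library 5, with the lowest share of PBS, also had the lowest sums for the plasma cell, B cell, monocyte, dendritic cell and eosinophil lists. PBS library 4 had the lowest for the neutrophil granule, erythroid and T and NK cell lists. The part of such cells in the other differences between the groups was not tested beyond the fits with that share in the model.

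Jchain, the joining chain of secreted antibodies and one of the most abundant transcripts of plasma cells, had 33.2, 8.54 and 91.5 CPM after 5-FU, against 18990, 23680, 60550, 9800 and 2592 CPM after PBS (log2 fold change -9.03 ± 1.85 (SE), edgeR adjusted p = 0.00866). Like the immunoglobulin genes it was highest in PBS library 3 and lowest of PBS in library 5, and its call was lost without 5-FU library 1 or 2. Sdc1, the plasma cell surface proteoglycan CD138, had 14.5, 12.8 and 16.2 CPM after 5-FU, against 282, 241, 265, 308 and 106 CPM after PBS (log2 fold change -4.05 ± 0.63 (SE), edgeR adjusted p = 0.00104), and Irf4, the transcription factor of plasma cells, had 0.577, 0.266 and 0.532 CPM after 5-FU, against 59.6, 60.2, 126, 60.6 and 14.7 CPM after PBS (log2 fold change -7.13 ± 1.16 (SE), edgeR adjusted p = 0.001803). The B cell gene Fcmr, a receptor for IgM, was not read after 5-FU and had 29.8, 12.6, 14.3, 7.18 and 6.52 CPM after PBS. Against a floor of 3 counts per library it was at least 148-fold lower after 5-FU. Ms4a1, which encodes CD20, was read 3 times in all 5-FU libraries, a pooled ratio of 707 in favour of PBS (95% counting interval 242 to 3430). Trbc2, a constant region of the T cell receptor, had 0.0607, 0 and 0.114 CPM after 5-FU, against 4.297, 4.39, 9.34, 2.43 and 2.79 CPM after PBS (log2 fold change -6.29 ± 0.79 (SE), edgeR adjusted p = 2.65e-04).

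Genes of maturing granulocytes fell deeply. The 17 tested genes of secondary granules had a median log2 fold change of -10.37, and the 198 immunoglobulin genes tested, of which 54 were called lower, had -11.64. Ngp, a neutrophil granule protein, had 0.182, 0.213 and 0.114 CPM after 5-FU, against 3396, 1964, 4145, 778 and 1612 CPM after PBS (log2 fold change -13.72 ± 1.88 (SE), edgeR adjusted p = 7.41e-04). Camp, the antimicrobial cathelicidin, was read 4 times in all 5-FU libraries and had 929, 658, 3614, 224 and 454 CPM after PBS (log2 fold change -14.63 ± 2.67 (SE), edgeR adjusted p = 0.00469). Retnlg, a resistin-like protein of neutrophils, was read once after 5-FU, a pooled ratio of 14390 in favour of PBS (95% counting interval 2582 to 568300). Ly6g, the antigen used to sort neutrophils, was not read after 5-FU and was at least 227-fold lower than in PBS libraries. Prss34, a protease of basophils and mast cells, was not read after 5-FU either and was at least 336-fold lower. Ear1, a ribonuclease of eosinophils, was not read after 5-FU and had 3.098, 0.125, 50.8, 1.16 and 4.99 CPM after PBS. It was at least 127-fold lower after 5-FU, and at least 24.7-fold lower without PBS library 3. PBS library 2 lay under the floor of 3 counts (0.188 CPM). The call of Ear1 was lost without PBS library 1 or 5 or any one 5-FU library. Of the genes for the earlier, primary granules 2 of 14 fell (14.3%, against 9.31% over all genes). Their summed level was 581 to 4173 CPM after 5-FU and 1814 to 6679 CPM after PBS. Of these primary granule genes 1 fell without 5-FU library 1 or 2 and 6 without 5-FU library 3. The alpha globin gene Hba-a1 had 0, 0.0532 and 0.152 CPM after 5-FU, against 287, 55.1, 183, 32.5 and 160 CPM after PBS (log2 fold change -11.04 ± 1.97 (SE), edgeR adjusted p = 0.00415), and the macrophage and granulocyte lysozyme Lyz2 had 188, 118 and 159.5 CPM after 5-FU, against 1932, 940, 1708, 639 and 1142 CPM after PBS (log2 fold change -3.04 ± 0.46 (SE), edgeR adjusted p = 9.01e-04).

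Class II antigen presentation fell in all 12 genes tested, against 9.31% falls over all genes. The summed levels were 219.7 to 355 CPM after 5-FU and 1250 to 8399 CPM after PBS. H2-Aa, a chain of the class II molecule, had 11.5, 4.68 and 8.59 CPM after 5-FU, against 228, 284, 259, 57.2 and 68.5 CPM after PBS (log2 fold change -4.44 ± 0.72 (SE), edgeR adjusted p = 0.00143). Cd74, the invariant chain that guides it, had 52.5, 21.4 and 52.02 CPM after 5-FU, against 2833, 3405, 5304, 2852 and 537 CPM after PBS (log2 fold change -6.15 ± 1.00 (SE), edgeR adjusted p = 0.00157), and Ctss, the protease that cleaves the invariant chain, had 44.8, 29.7 and 44.5 CPM after 5-FU, against 608, 707, 1523, 586 and 148 CPM after PBS (log2 fold change -4.17 ± 0.91 (SE), edgeR adjusted p = 0.00925). B cells, dendritic cells and macrophages share these genes, and PBS library 5 was the lowest of PBS for Cd74 and Ctss. Falls were called in 7 of the 12 with the immunoglobulin share in the model, in 4 within the 715 libraries and in 7 without 5-FU library 2, when Ctss was no longer called. Cybb, a subunit of the phagocyte oxidase, fell by 3.67, Ly6c2, an antigen of monocytes and plasma cells, by 7.69, Cd52, a glycoprotein of mature leukocytes, by 5.62, and Slpi, a protease inhibitor of myeloid cells, by 5.09 on the log2 scale. The calls of Ly6c2, Cd52 and Slpi were lost without 5-FU library 1 or 2.

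**Figure D4:**
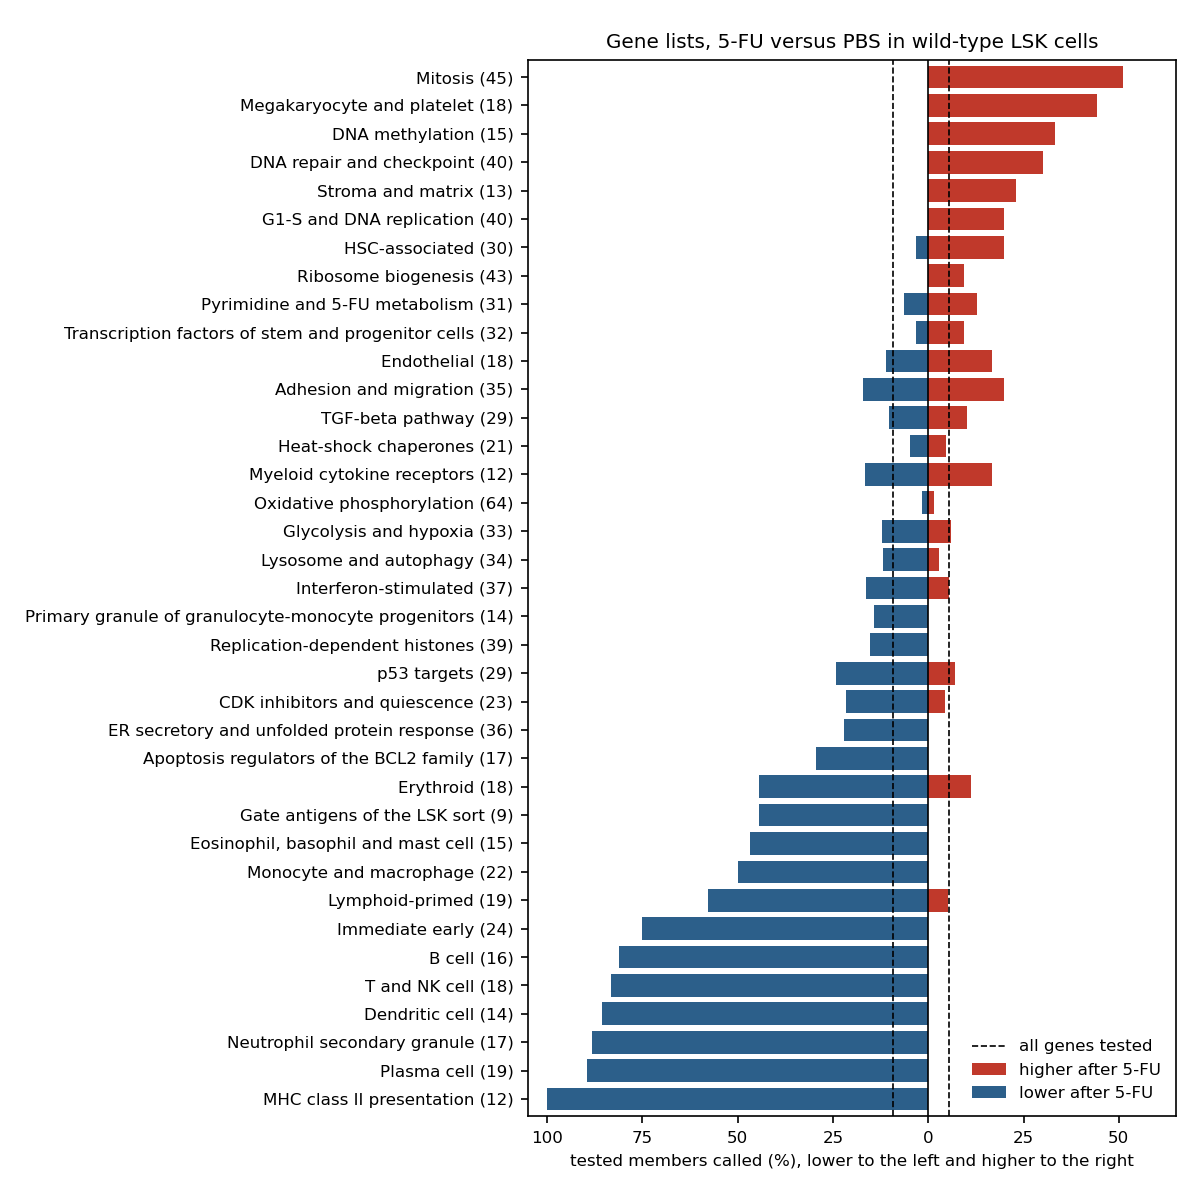
Share of tested members called higher (red, to the right) or lower (blue, to the left) after 5-FU for 37 gene lists, with the number tested in brackets, ordered by the difference of the shares. Dashed lines mark 5.55% rises and 9.31% falls over all genes tested; mitosis (23 of 45 rose) stands at the top and class II presentation (12 of 12 fell) at the bottom.

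Genes of the mitotic spindle and of cell division rose. Of 45 mitosis genes 23 rose (51.1%, against 5.55% over all genes) and none fell, with a median log2 fold change of 1.05. The summed level was 4743 to 5813 CPM after 5-FU and 2420 to 2984 CPM after PBS. Genes of G1-S transition and DNA replication rose in 8 of 40 (20%, median 0.64) and DNA repair and checkpoint genes in 12 of 40 (30%, median 0.80), with no falls in either. These counts depended on single libraries. For mitosis the count was 14, 8, 10, 20 and 27 without PBS libraries 1 to 5, and 4, 1 and 11 without 5-FU libraries 1 to 3. For replication it was 5, 4, 4, 6 and 8 without PBS libraries 1 to 5, and 1, 0 and 4 without 5-FU libraries 1 to 3. For repair and checkpoint it was 7, 6, 8, 11 and 14 without the PBS libraries, and 1, 0 and 9 without the 5-FU libraries, in the same order. The mitosis count was 41 with the length trend removed, 1 in the 715 libraries and 0 with the immunoglobulin share in the model, where the median was 0.33 and -0.51 with its log2. In the 715 libraries the median was 0.73.

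Because many mitotic genes rose together, the start regions of the 4 with the smallest p among those with a window are shown. Of 23 mitosis genes that rose, 18 had a RefSeq promoter window (GRCm38.p6), which spans 250 bases before to 50 after the start. The windows were searched on both strands for CCAAT, the box bound by NF-Y, and for TTTGAA or TTCGAA, the forms of the cell cycle genes homology region, a promoter element of late cell cycle genes. CCAAT was in 16 of the 18 windows (88.9%), in 12 of 18 windows (66.7%) of mitosis genes that were not called, and in 37.9% of 27025 promoters. TTTGAA or TTCGAA was in 16 of 18 (88.9%), 13 of 18 (72.2%) and 19.4%. The following are 4 windows in the direction of transcription, with matches in capitals in either orientation: Ccnb2 at chr9:70421505-70421804 (minus strand), Anln at chr9:22389157-22389456 (minus strand), Hmmr at chr11:40733388-40733687 (minus strand) and Cenpe at chr3:135212313-135212612 (plus strand).
Ccnb2: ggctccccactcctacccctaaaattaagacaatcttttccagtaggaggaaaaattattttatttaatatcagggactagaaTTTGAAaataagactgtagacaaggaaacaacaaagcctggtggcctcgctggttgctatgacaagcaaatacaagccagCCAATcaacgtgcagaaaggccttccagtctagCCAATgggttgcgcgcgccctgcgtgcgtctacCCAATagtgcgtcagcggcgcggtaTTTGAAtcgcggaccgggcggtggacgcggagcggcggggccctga
Anln: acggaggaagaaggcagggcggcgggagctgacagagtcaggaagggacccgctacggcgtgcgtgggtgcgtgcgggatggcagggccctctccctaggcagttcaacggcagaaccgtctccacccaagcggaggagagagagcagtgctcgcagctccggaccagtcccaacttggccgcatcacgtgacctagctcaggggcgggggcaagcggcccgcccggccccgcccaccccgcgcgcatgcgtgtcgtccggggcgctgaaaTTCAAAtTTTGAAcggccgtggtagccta
Hmmr: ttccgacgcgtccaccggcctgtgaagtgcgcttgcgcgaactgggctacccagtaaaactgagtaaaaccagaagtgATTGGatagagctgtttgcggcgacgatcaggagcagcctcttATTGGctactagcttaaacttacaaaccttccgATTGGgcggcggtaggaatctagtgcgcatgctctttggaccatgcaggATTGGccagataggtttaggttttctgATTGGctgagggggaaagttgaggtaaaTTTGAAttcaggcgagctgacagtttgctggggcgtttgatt
Cenpe: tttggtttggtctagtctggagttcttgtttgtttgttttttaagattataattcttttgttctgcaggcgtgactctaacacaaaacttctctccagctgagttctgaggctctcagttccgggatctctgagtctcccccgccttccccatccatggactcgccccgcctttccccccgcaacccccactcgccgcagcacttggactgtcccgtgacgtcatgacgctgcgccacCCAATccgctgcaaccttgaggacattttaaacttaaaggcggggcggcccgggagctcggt

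Ccnb2 (chr9:70407692-70421547), the cyclin B2 that drives entry into mitosis, had 184, 181 and 191 CPM after 5-FU, against 94.2, 101, 87.1, 83.9 and 90.9 CPM after PBS. The values within each group were within a narrow range and the groups lay about a factor of 2 apart (log2 fold change 1.02 ± 0.20 (SE), edgeR adjusted p = 0.00522). Its window holds CCAAT 3 times. Anln, the anillin of the contractile ring, had 51.95, 73.5 and 49.02 CPM after 5-FU, against 20.9, 14.3, 18.4, 22 and 25.4 CPM after PBS (log2 fold change 1.52 ± 0.33 (SE), edgeR adjusted p = 0.00866), and its window has no CCAAT but holds TTTGAA on both strands. Hmmr, a spindle protein, had 89, 111 and 86.8 CPM after 5-FU, against 40.4, 30.9, 39.7, 44.2 and 45.9 CPM after PBS (log2 fold change 1.25 ± 0.28 (SE), edgeR adjusted p = 0.00929), with 5 copies of CCAAT. Cenpe, a kinesin of the centromere, had 62.1, 82.1 and 48.3 CPM after 5-FU, against 32.3, 25.9, 25.9, 32.02 and 33.3 CPM after PBS (log2 fold change 1.10 ± 0.27 (SE), edgeR adjusted p = 0.0147), and its window holds CCAAT 1 time and neither TTTGAA nor TTCGAA. Kif11, the kinesin that separates the spindle poles, had 132, 198 and 111 CPM after 5-FU, against 55.3, 39.99, 43.5, 66.02 and 78.1 CPM after PBS (log2 fold change 1.38 ± 0.33 (SE), edgeR adjusted p = 0.0147). Top2a, the topoisomerase that untangles sister chromatids, had 328, 457 and 264 CPM after 5-FU, against 169, 134, 155, 177 and 212 CPM after PBS (log2 fold change 1.05 ± 0.28 (SE), edgeR adjusted p = 0.0226). Mki67, the proliferation marker Ki-67, was read at 130, 179 and 92.9 CPM after 5-FU and at 70.4, 56.9, 85.1, 75.9 and 110.7 CPM after PBS. The groups overlapped and the call was missed (log2 fold change 0.75 ± 0.29 (SE), edgeR adjusted p = 0.0814); it was named after its values were seen. It passed without PBS library 5. The calls of Anln, Hmmr, Cenpe, Kif11 and Top2a were lost without 5-FU library 2, those of Cenpe and Top2a also without 5-FU library 1, and that of Top2a without PBS library 2.

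Among replication genes, Pole, the leading strand polymerase, had 82.99, 129.9 and 54.2 CPM after 5-FU, against 33.1, 31.1, 26.8, 37.4 and 53.03 CPM after PBS (log2 fold change 1.29 ± 0.28 (SE), edgeR adjusted p = 0.00868). Orc1, a subunit of the origin recognition complex, had 24.8, 28.5 and 25.5 CPM after 5-FU, against 10.3, 5.202, 2.18, 9.99 and 10.3 CPM after PBS (log2 fold change 1.78 ± 0.44 (SE), edgeR adjusted p = 0.0164), and E2f8, a repressor of the E2F family, had 55.99, 60.1 and 48.5 CPM after 5-FU, against 22.6, 16.9, 17.1, 19.4 and 21.2 CPM after PBS (log2 fold change 1.5 ± 0.37 (SE), edgeR adjusted p = 0.0161). Brca1 and Rad54l, which act in homologous recombination, rose by 1.65 and 1.12 on the log2 scale. Of 15 DNA methylation genes 5 rose (33.3%, against 5.55% over all genes) and none fell. The maintenance methyltransferase Dnmt1 had 425, 619 and 251 CPM after 5-FU, against 108, 74.2, 85.2, 191 and 213 CPM after PBS (log2 fold change 1.68 ± 0.48 (SE), edgeR adjusted p = 0.0316), its partner Uhrf1 had 303, 375 and 264 CPM after 5-FU, against 130.3, 87.8, 72.9, 182 and 179 CPM after PBS (log2 fold change 1.27 ± 0.40 (SE), edgeR adjusted p = 0.0442), and the de novo enzyme Dnmt3b had 164, 213 and 112 CPM after 5-FU, against 54.5, 35.1, 40.3, 68.98 and 89.5 CPM after PBS (log2 fold change 1.5 ± 0.37 (SE), edgeR adjusted p = 0.0171). In most of these genes 5-FU library 2 was the highest and 5-FU library 3 the lowest of the 3. Without 5-FU library 2 the calls of Pole, Orc1, E2f8, Brca1, Rad54l, Dnmt1, Uhrf1 and Dnmt3b were lost, and without 5-FU library 1 those of the same genes other than Pole and Brca1. Those of Dnmt1 and Uhrf1 were also lost without PBS library 1, 2 or 3, and that of Uhrf1 without 5-FU library 3. Of the DNA methylation genes 1 rose without PBS library 1, 2 or 3, 3 without PBS library 4 or 5-FU library 3, and none without 5-FU library 1 or 2.

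Of 31 genes of pyrimidine and 5-FU metabolism, the pathway that handles the drug, 4 rose (12.9%) and 2 fell (6.45%), with a median of 0.16. Tyms, which encodes thymidylate synthase, the target of 5-FU, was named after its values were seen and had 114, 104 and 109 CPM after 5-FU, against 97.04, 114, 105, 94.4 and 86.2 CPM after PBS. The groups overlapped (log2 fold change 0.14 ± 0.20 (SE), edgeR adjusted p = 0.641). Cad, which starts pyrimidine synthesis, had 133, 248 and 97.8 CPM after 5-FU, against 31.9, 32.6, 46.2, 60.3 and 81.1 CPM after PBS (log2 fold change 1.66 ± 0.42 (SE), edgeR adjusted p = 0.0185), Uck2, a uridine kinase that also activates 5-FU metabolites, had 119.6, 139 and 159.9 CPM after 5-FU, against 59.2, 68.2, 94.6, 94.04 and 77.98 CPM after PBS (log2 fold change 0.83 ± 0.19 (SE), edgeR adjusted p = 0.0117), and Rrm2, a subunit of ribonucleotide reductase, had 234, 259.6 and 326 CPM after 5-FU, against 195, 144, 93.3, 135 and 125 CPM after PBS (log2 fold change 0.98 ± 0.28 (SE), edgeR adjusted p = 0.0299). Upb1, the last enzyme of pyrimidine breakdown, was not read after 5-FU and was at least 42.3-fold lower than in PBS libraries. Without 5-FU library 2 no gene of this list rose. The call of Uck2 was lost without 5-FU library 3 too, and that of Rrm2 without any one 5-FU library or PBS library 2 or 3. Of 29 p53 targets 2 rose (6.9%) and 7 fell (24.1%), with a median of 0.09, against 5.55% rises and 9.31% falls over all genes. Without 5-FU libraries 1 to 3 in turn, 1, 1 and 2 of the p53 targets fell. Cdkn1a, which encodes the cell cycle inhibitor p21, had 9.84, 6.62 and 11.2 CPM after 5-FU, against 10.2, 9.71, 12.9, 23.8 and 23.8 CPM after PBS and missed the call (log2 fold change -0.81 ± 0.35 (SE), edgeR adjusted p = 0.115); it was named after its values were seen.

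The antigens of the sort gate bear on which cells were collected. Kit, the receptor for stem cell factor, had 447, 572 and 254 CPM after 5-FU, against 278, 148, 111, 298 and 471 CPM after PBS, with overlapping groups (log2 fold change 0.70 ± 0.48 (SE), edgeR adjusted p = 0.289). Ly6a, which encodes Sca-1, had 179, 114 and 299.7 CPM after 5-FU, against 744, 1153, 3787, 626 and 185 CPM after PBS. PBS library 3 was over 3 times as high as any other and PBS library 5 lay between the 5-FU libraries (log2 fold change -2.72 ± 1.04 (SE), edgeR adjusted p = 0.0818). Of the 7 other gate antigens tested, the T cell genes Cd3e, Cd3g, Cd8b1 and Cd4 fell, and each was under 7 CPM in every wild-type library. Cd3e was read in 4 of the 5 PBS libraries at no more than 1.25 CPM. Ly6a passed without PBS library 5. Without any one 5-FU library, or without PBS library 1, 1 gate antigen fell.

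The same treatment in the mutant called 362 genes, 138 higher and 224 lower, in the same model. Of the wild-type rises 81 also rose in the mutant, which is 8.85% of the wild-type and 58.7% of the mutant rises. Falls shared by both numbered 165, 10.7% of the wild-type and 73.7% of the mutant falls. Another 10 genes were called in both genotypes in opposite directions. The response itself differed between genotypes (interaction) for 97 genes, or 0.589% of those tested, of which 92 were lower and 5 higher in wild type. Of the 97, 91 were falls and 3 rises in wild type. The immunoglobulin share of the mutant libraries was 26.6, 16.9 and 5.69% after 5-FU, and 28.9, 34.4, 50.2, 12.2 and 3.67% after PBS. All mutant 5-FU sample codes start with 0507 and so have a leading zero, which no wild-type 5-FU code has. After 5-FU, genotype and the writing of the codes therefore cannot be told apart. The number of interactions was 11, 15 and 41 without wild-type 5-FU libraries 1 to 3, 193 with the immunoglobulin share in the model and 0 with its log2.

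Flt3 had 104, 104 and 162 CPM after 5-FU, against 462, 383, 343, 421 and 507 CPM after PBS in wild type, and 22.3, 22.7 and 17.8 CPM after 5-FU against 434, 406, 204, 408 and 377 CPM after PBS in the mutant. It fell in both, and by less in wild type (log2 fold change -1.78 in wild type and -4.13 in the mutant; interaction 2.35 ± 0.35, edgeR adjusted p = 0.00798). Dntt likewise fell by less in wild type (interaction 3.50 ± 0.67, edgeR adjusted p = 0.0266), with 8.73, 5.58 and 6.96 CPM after 5-FU against 708, 904.5, 217, 475 and 435 CPM after PBS in the mutant. For Selp the rise was larger in wild type (interaction 2.09 ± 0.35, edgeR adjusted p = 0.0141), while its level after PBS was higher in the mutant, at 24.2 to 46.2 CPM.

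The other genes described for the interaction fell in wild type and were not called in the mutant, except Rasgrp1. Rasgrp1, a Ras activator of lymphocytes, had 0, 0.0798 and 0 CPM after 5-FU, against 5.55, 1.44, 1.81, 0.337 and 1.53 CPM after PBS in wild type, where it fell, and 7.44, 7.83 and 10.9 CPM after 5-FU, against 0.636, 1.09, 1.59, 0.0981 and 0.933 CPM after PBS in the mutant, where it rose (interaction -9.30 ± 1.42, edgeR adjusted p = 0.00798). Il7r had 19.3, 4.66 and 17.5 CPM after 5-FU and 15.9, 18.2, 9.60, 5.07 and 5.26 CPM after PBS in the mutant, groups that overlap (interaction -6.61 ± 0.93, edgeR adjusted p = 0.00534). Ccr9 had 2.83, 3.87 and 13.4 CPM after 5-FU and 13.9, 15.8, 7.31, 9.58 and 10.6 CPM after PBS in the mutant (interaction -6.57 ± 0.80, edgeR adjusted p = 0.00267). Cd300lf, an inhibitory receptor of myeloid cells, had 0.304, 0.585 and 0.532 CPM after 5-FU, against 19.5, 14.1, 20.5, 15.6 and 11.3 CPM after PBS in wild type, and 9.56, 7.64 and 21.5 CPM after 5-FU and 5.59, 10.3, 14.7, 9.42 and 7.13 CPM after PBS in the mutant (interaction -5.54 ± 0.57, edgeR adjusted p = 6.53e-04). Gpr183, an oxysterol receptor that guides B cells, had 0.0911, 0.106 and 0.114 CPM after 5-FU, against 5.697, 8.78, 8.98, 4.12 and 3.28 CPM after PBS in wild type (interaction -6.09 ± 0.76, edgeR adjusted p = 0.00267). Plbd1, a phospholipase of granulocytes, and Lilrb4a, an inhibitory receptor of myeloid cells, gave interactions of -6.32 and -5.52. The B and T cell genes Ms4a1 (interaction -7.99), Fcmr (-10.36), Trbc2 (-7.11) and Il2rb (-9.89), the plasma cell gene Irf4 (-6.85) and the immediate early gene Klf4 (-4.27) were also lower in wild type. Fitted values for genes with almost no reads after 5-FU depend on the model and are not bounds. The B cell list held 6 interaction genes of 16 tested, the T and NK cell list 6 of 18, and the mitosis, replication and immediate early lists 0, 0 and 1. Over all genes tested the share was 0.589%.

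**Figure D5:**
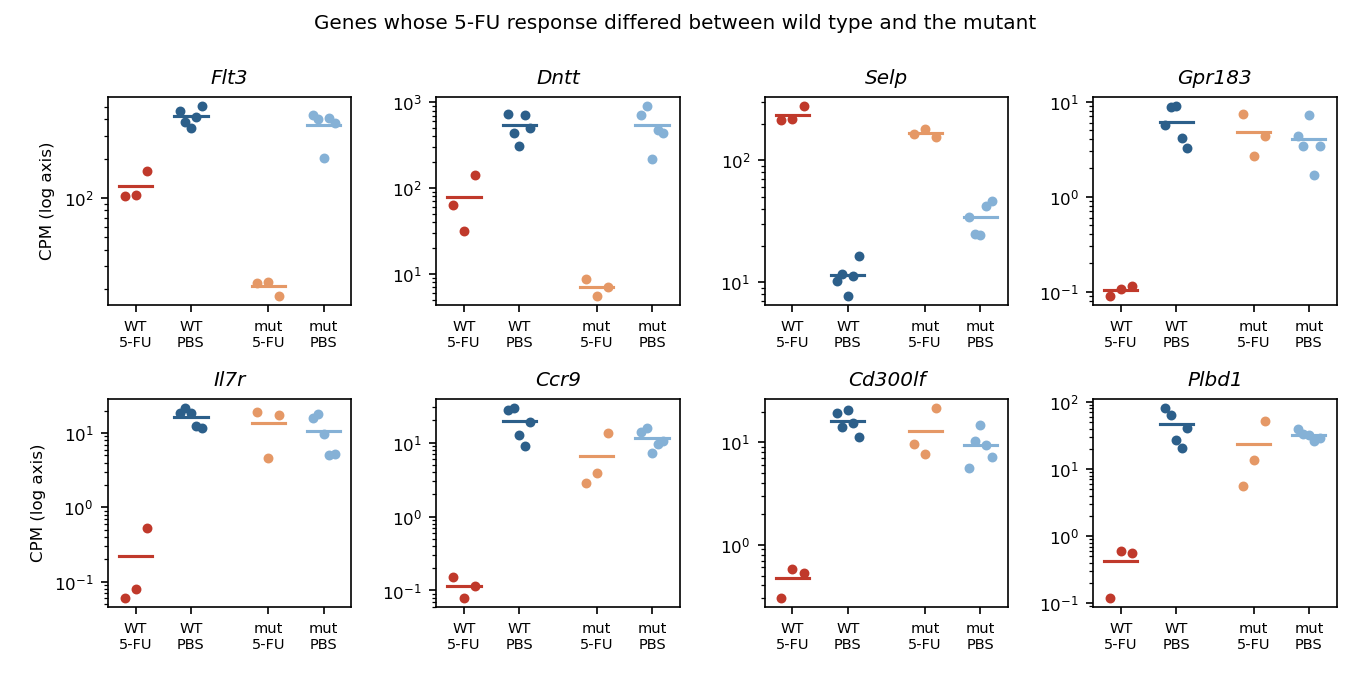
CPM (log axes) of 8 genes in wild type (left pair) and the mutant (right pair), 5-FU left of PBS in each pair, with lines at the group means. Flt3 and Dntt are lowest in the mutant after 5-FU, while Gpr183, Il7r, Ccr9, Cd300lf and Plbd1 are low in wild type after 5-FU alone.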

How the data were processed

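The RNeasy Micro kit for RNA and NuGEN's Ovation Ultralow chemistry for libraries were used, per the labels' protocols. The submitters' processing notes name RSEM 1.3.1, FastQC 0.11.2 and mm10 (GRCm38). No aligner or annotation release is given in the sources used here. What the authors deposited are, per the file headers, RSEM expected counts (estimated fragments per gene, not scaled to the library), TPM and FPKM. FPKM was used only to check the tables.

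Expected counts were rounded. Total counts were 20.17 to 28.24 (in units of 1e6) in wild-type 5-FU and 19.37 to 27.16 in wild-type PBS libraries. Genes were filtered with filterByExpr of edgeR 4.0.16 (minimum count 10) and scaled by TMM, in R 4.3.3. The robust quasi-likelihood test used all 16 samples with 1 mean per group, and P values were adjusted by Benjamini and Hochberg over all genes tested. SE was taken as the absolute log2 fold change over the root of F. Gene positions are those of GENCODE M21, which held 99.8% of the gene IDs. A gene with 0 reads in a group has its fold against a floor of 3 counts per library (0.0798 to 0.272 CPM in wild-type libraries). Intervals and floors cover counting error only. The immunoglobulin share was compared by an exact permutation test. The edgeR, DESeq2 and limma code was tested on simulated counts.

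The 37 lists, the members and the alternatives were chosen with earlier results of these data known. Named genes were Gata2, Kit and Ly6a; the 12 largest rises and 12 largest falls with no overlap and 5 CPM or more in whichever group was higher, and again with at least 10 CPM in both groups; up to 4 members with the smallest p of each list, 8 for 4 lists; and the 12 smallest p of the interaction among genes called in wild type and in the interaction. Predicted models, immunoglobulin genes and sex-linked marker genes were passed over, and the text gives a part of the genes so named; 1 list member that was called is not reported here. The alternatives were other scaling factors, no filter, the immunoglobulin genes left out, DESeq2 1.42.0, limma 3.58.1 (voom with sample weights, and log2(TPM + 1)), a fit that is not robust or of wild type alone, the replicate block, subsets and a covariate by sample code, the immunoglobulin share as a covariate, and each replicate left out. After the data were seen came the removal of the length trend (loess, span 0.5), the log2 immunoglobulin share, and PBS replicates 4 and 5 only.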

Additional observations from a re-analysis of the deposited data

Results flagged for a closer look

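Among 113 measures checked in the 5 wild-type PBS libraries, one library stood far from the others for 10 genes, and for 8 of them it was PBS library 3. It had 3787 CPM of Ly6a, 2.81 CPM of Tjp1, 3614 CPM of Camp, 73.9 CPM of Prss34, 50.8 CPM of Ear1, 1795 CPM of Cd52, 9.34 CPM of Trbc2 and 1.09 CPM of Muc1, in each case the highest of its group. The others were Tmem215, with 2.32 CPM in PBS library 2, and Rasgrp1, with 5.55 CPM in PBS library 1, also the highest of the group. Chance alone flags about 1 in 20 groups of this size if the values are normally distributed, which was not tested. PBS library 3 also had the highest immunoglobulin share of the wild-type libraries (44.2%). In the mutant, PBS library 3 likewise had the highest share (50.2%). It was the highest mutant PBS library for Ly6a (3511 CPM), Camp (3925 CPM), Prss34 (126.2 CPM), Ear1 (14.71 CPM) and Cd52 (2051 CPM). For Tjp1, Trbc2 and Muc1 it was not.

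The 5-FU response differed between wild type and the mutant (edgeR interaction, wild type minus mutant on the log2 scale) for 16 of the genes named. Many of these were named for a small interaction p, so the count follows from that choice. Over all genes tested the share called was 0.589%. The response was more positive in wild type for Selp (2.09), Flt3 (2.35) and Dntt (3.50). It was more negative in wild type for Fcmr (-10.36), Ccr9 (-6.57), Il7r (-6.61), Irf4 (-6.85), Ms4a1 (-7.99), Trbc2 (-7.11), Klf4 (-4.27), Cd300lf (-5.54), Gpr183 (-6.09), Plbd1 (-6.32), Il2rb (-9.89), Lilrb4a (-5.52) and Rasgrp1 (-9.30). None of these interactions was called with the log2 immunoglobulin share in the model.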

How the results depend on the processing

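The 2450 calls became 4591 with DESeq2, 6993 with limma-voom, 7509 with limma on log2(TPM + 1), 4612 with the length trend removed, 1572 in wild-type libraries whose code has no leading zero, 189 in the 715 libraries, 1012 with code writing and 681 with the immunoglobulin share as a covariate, 22 with its log2, and 502 with PBS replicates 4 and 5 only. With 1 replicate left out they ranged from 526 to 3233. The 97 interactions became 582 with DESeq2, 736 with limma-voom, 64 with log2(TPM + 1), 27 with code writing, 193 with the immunoglobulin share, 0 with its log2 and 10 with PBS replicates 4 and 5 only, and ranged from 11 to 133 with 1 replicate left out. Without a leading zero the immunoglobulin difference was -6.50, where the design cannot reach the threshold. Replicate numbers did not pair the wild-type 5-FU libraries with the wild-type PBS libraries (correlations of deviations 0.014, -0.158 and 0.168). Pairing across genotypes was not tested. The immunoglobulin shares of PBS libraries 1 to 5 ranked alike in wild type (31.1, 36.0, 44.2, 25.2 and 6.37%) and the mutant (28.9, 34.4, 50.2, 12.2 and 3.67%). With a replicate block 7318 genes and 383 interactions were called. The median of all genes was -0.239 with upper-quartile factors and 1.01 with log2(TPM + 1), against -0.107.

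Directions turned for Kit (-0.60) and Mki67 (-0.01) in the 715 libraries, Tyms (0.00) with upper-quartile factors, Cdkn1a (0.74) with log2(TPM + 1), and Kit (-0.41) and Ly6a (0.61) with the immunoglobulin share. With its log2 they turned for Gata2 (-0.58), Kit (-2.39), Ly6a (4.46), Anln (-0.51), Brca1 (-0.67), Cad (-1.10), Cd52 (1.00), Cd74 (0.42), Cenpe (-0.60), Ctnnal1 (-0.20), Ctss (1.78), Dnmt1 (-1.62), Dnmt3b (-0.96), E2f8 (-0.49), F2r (-0.48), Gp1ba (-0.16), Gp5 (-0.10), Herpud1 (1.20), Hmmr (-0.05), Id3 (0.30), Irf4 (0.34), Jchain (1.26), Kif11 (-0.87), Ly6c2 (1.62), Mecom (-1.30), Mki67 (-1.25), Orc1 (-0.24), Pecam1 (-0.14), Pole (-0.49), Rad54l (-0.15), Sdc1 (0.13), Slpi (3.43), Top2a (-0.59) and Uhrf1 (-1.05). The wild-type groups did not overlap in immunoglobulin share. Signs with it or its log2 in the model are extrapolated from the spread within groups. The cause was not tested. Genes with few reads after 5-FU are limited by depth.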

Other observations

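Calls in several processes not described above are given beside 5.55% rises and 9.31% falls over all genes. Of 36 genes of the secretory pathway and the unfolded protein response 8 fell (22.2%) and none rose, with a median log2 fold change of -0.89. Herpud1, which helps to clear misfolded proteins from the endoplasmic reticulum, had 86.4, 76.04 and 102 CPM after 5-FU, against 383, 402, 393, 640.1 and 151 CPM after PBS (log2 fold change -2.16 ± 0.48 (SE), edgeR adjusted p = 0.00984). The summed level of the list overlapped, at 6369 to 8620 CPM after 5-FU and 6514 to 15210 CPM after PBS, where PBS library 5 was again the lowest. These genes are abundant in plasma cells, whose 17 of 19 falls are given above, and a link between the falls was not tested. Interferon-stimulated genes had 2 rises and 6 falls of 37, and Mx1, an antiviral GTPase, had 1.397, 0.825 and 2.43 CPM after 5-FU, against 3.80, 4.39, 12.4, 6.10 and 3.398 CPM after PBS. Of 17 apoptosis regulators of the BCL2 family 5 fell (29.4%) and none rose. Among 33 genes of glycolysis and hypoxia 2 rose and 4 fell: Ldha, lactate dehydrogenase A, had 1344, 1434 and 1795 CPM after 5-FU, against 754, 857, 484, 814 and 732 CPM after PBS (log2 fold change 1.07 ± 0.24 (SE), edgeR adjusted p = 0.00967), while the angiogenic factor Vegfa fell by 2.41 on the log2 scale. Of 18 endothelial markers 3 rose (16.7%) and 2 fell (11.1%); Pecam1, an adhesion molecule that platelets and stem cells also carry, had 81.6, 82.2 and 94.7 CPM after 5-FU, against 40.4, 25.0, 30.7, 47.9 and 62.2 CPM after PBS, and Stab2, a scavenger receptor of sinusoidal endothelium, had 0.334, 0.106 and 0.266 CPM after 5-FU, against 4.597, 2.57, 4.54, 3.18 and 2.20 CPM after PBS. The calls of Herpud1 and Mx1 were lost without 5-FU library 1 or 2, those of Vegfa and Pecam1 without any one 5-FU library, and that of Stab2 without 5-FU library 2. With limma on log2(TPM + 1) the calls of Herpud1, Mx1, Vegfa and Stab2 were lost.

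Lists of short transcripts moved with the treatment of length. Oxidative phosphorylation genes had a median of -0.95, with 1 rise and 1 fall of 64, and 0.55 with 33 rises once the length trend was removed. Replication-dependent histones had a median of -0.97, with 6 falls of 39, and 0.41 with 5 rises and 4 falls once it was removed. Ribosome biogenesis genes had 4 rises of 43 and a median of 0.63. Heat-shock chaperones had 1 rise and 1 fall of 21, and lysosome and autophagy genes 1 rise and 4 falls of 34. CDK inhibitors and quiescence genes had 1 rise and 5 falls of 23, of which Btg2 and Egr1 are also immediate early genes.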
